A study of Homo sapiens with 8 samples.

Results

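The E2F family was followed in 8 RNA sequencing libraries of EA.hy926 cells, an immortalized line a hybrid of human umbilical vein endothelium and a lung carcinoma line. The genes described are the 8 E2F transcription factors, E2F1 to E2F8, and 2 pocket proteins, RBL1 (p107) and RBL2 (p130). They were chosen by name from the 27946 genes with a value in the deposited table. RB1 is not among the genes described, so these 2 do not stand for all pocket proteins. Control cells gave 2 libraries. The ΔE2 group holds 3 clonal lines from which CRISPR/Cas9 had removed the enhancer E2, and the ΔSE12313-b group holds 3 clonal lines without SE12313-b, another enhancer of the same super-enhancer on chromosome 16. E2 is the name of an enhancer and has nothing to do with the E2F genes. All cells were kept in high-glucose medium with serum. The deletions were made by transfecting cells with Cas9 protein and guide RNAs. For its proliferation assay the study describes control cells that had received guide RNAs and were grown alongside the clones. The sources used here do not say whether the control libraries came from these cells. Each deletion line grew from a single cell, and for the control cells the sources used here name no cloning step, so the deletion and the cloning cannot be told apart.

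E2F proteins bind a short DNA element in the promoters of genes for DNA replication and cell division. E2F1, E2F2 and E2F3 activate these genes around the entry into S phase. E2F4 and E2F5 act mainly as repressors in quiescent cells, together with the pocket proteins RBL1 and RBL2, which hold E2F proteins in check until cyclin-dependent kinases phosphorylate them. E2F6 represses without a pocket protein, as part of a Polycomb complex. E2F7 and E2F8, the atypical members, bind DNA without a dimerization partner and repress the targets of the activators late in S phase. Several E2F genes, E2F7 and E2F8 among them, are known as E2F targets themselves.

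The letters of the E2F element can be seen upstream of several members. RefSeq promoters, 250 bases before to 50 bases after a gene start on GRCh38.p14, were matched by symbol for 8 members, with 10 starts in all, and none was matched for E2F5 and E2F8. The E2F core was searched on both strands as the letters TTCCCGC and as their variants with GG (TTGGCGC), with CG (TTCGCGC) and with GC (TTGCCGC) in the middle. It was found in 6 of the 8 members, E2F1, E2F2, E2F3, E2F6, E2F7 and RBL1, and 4 of these, E2F1, E2F3, E2F7 and RBL1, held 2 matches in the promoter of 1 start. Of all 35116 promoters in the RefSeq table, 13.0% held at least 1 match and 1.77% held at least 2. No match overlapped another. The 5 stretches below are shown because they hold every E2F core found before a start. Capitals mark the E2F core, 5′ to 3′ on the strand of the gene.
E2F1, chr20:33686386-33686445, minus strand, the 60 bases before the start: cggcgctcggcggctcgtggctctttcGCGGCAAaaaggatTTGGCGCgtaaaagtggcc
E2F2, chr1:23531234-23531293, minus strand, the 60 bases before the start: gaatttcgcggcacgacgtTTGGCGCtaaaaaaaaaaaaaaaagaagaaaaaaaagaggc
E2F3, chr6:20401809-20401878, plus strand, the 70 bases before the first of 2 starts: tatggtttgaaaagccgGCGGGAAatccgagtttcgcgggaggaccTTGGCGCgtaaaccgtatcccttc
RBL1, chr20:37095998-37096057, minus strand, the 60 bases before the start: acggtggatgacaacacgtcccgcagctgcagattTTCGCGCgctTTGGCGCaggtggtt
E2F7, chr12:77065690-77065759, minus strand, from 190 to 121 bases before the start: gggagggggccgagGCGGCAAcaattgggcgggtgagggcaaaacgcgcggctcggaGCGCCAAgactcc

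In E2F1, E2F2, E2F3 and RBL1 a TTGGCGC on the strand of the gene began 19, 41, 24 and 15 bases before the start. In E2F7 the same letters lay on the opposite strand, 133 bases before the start. The match of E2F6 lay after its start and is not shown. E2F4 and both starts of RBL2 held no E2F core. The element of the cell cycle homology region, TTTGAA, which is read by the MuvB complex, was searched on both strands and is present in 15.2% of all promoters. It was found at the first start of E2F3, where it can be read near the left end of the stretch above, and at 1 of the 2 starts of RBL2. These matches describe letters in a window and were not set against any measure of binding.

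RNA was measured as FPKM, reads scaled to the length of the transcript and to the depth of the library, so levels can be compared between genes. As estimated from the FPKM values, the control libraries held 12067557 and 12696171 reads, and those of the clones between 13616465 and 19101153. Changes were tested with limma on log2(FPKM + 0.1) over the 13790 genes with at least 0.5 FPKM in at least 2 libraries, with Benjamini-Hochberg adjustment across that set. A gene is said to have risen or fallen where the adjusted p was under 0.05, and to be called where the change was also at least 2-fold. The median gene itself was shifted against the control, by 0.14 on the log2 scale in ΔE2 and by 0.27 in ΔSE12313-b, and values called relative to the median gene below have each library centred to take out this shift. The label of the cells was checked with marker genes. Of 8 endothelial markers 7 had a mean of at least 0.5 FPKM in each group, and their summed level was 209 FPKM in both control libraries, 198 to 332 in ΔE2 and 188 to 257 in ΔSE12313-b. The 4 leukocyte and 4 fibroblast markers were below that level. Of 5 epithelial markers only KRT8 and KRT18 passed it, with the epithelial sum at 232 to 239 FPKM in the control, 613 to 752 in ΔE2 and 541 to 669 in ΔSE12313-b, and CDH1 was listed at 0 in every library. This sum moved with the groups in every result below, and its part in them was not tested.

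All 10 members entered the test, 8 of them with both control libraries above the minimum level. E2F2 and E2F8 passed the minimum through the clones only. In ΔE2, 4 members were called higher, E2F1, E2F2, E2F8 and RBL1, while 11.2% of all genes tested were called higher, and 1 member, E2F5, was called lower, against 8.36% of all genes. In ΔSE12313-b the same 4 were called higher, against 14.7% of all genes, and 0 were called lower by limma, against 7.83%. There, 2 members had an unadjusted p under 0.05 and a lower level, and limma's voom on the recovered reads also called 0 lower. Without the fold limit, 6 members rose and 3 fell in ΔE2, where 34.7% of all genes rose and 19.4% fell. In ΔSE12313-b, 6 rose and 2 fell, where 43.0% of all genes rose and 16.4% fell. The members that fell were E2F7 and RBL2 in both and E2F5 in ΔE2. Both comparisons use the same 2 control libraries. In bulk RNA, fewer cells with a transcript and less of it per cell cannot be told apart. By the ranges of the groups, every ΔE2 library lay above both controls for 6 members and below them for 3, against 44.8% and 28.7% of all genes, and every ΔSE12313-b library lay above for 6 and below for 4, against 51.6% and 23.8%.

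**Figure D1:**
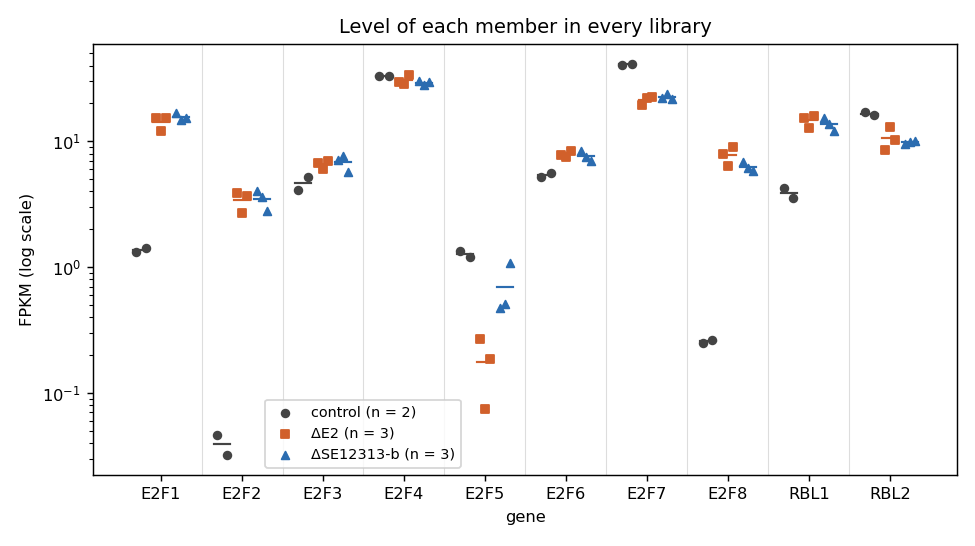
Level of the 10 members in FPKM, on a log axis, with 1 point for each library and a bar at the group mean (2 control, 3 ΔE2 and 3 ΔSE12313-b libraries). E2F1, E2F2, E2F8 and RBL1 sit far higher in all 6 clones than in the controls, E2F7 and RBL2 sit lower, and the control points of E2F2 rest on 3 and 2 reads.

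In the control cells the family was led by E2F7, with a mean of 41.0 FPKM, above E2F4 with 33.1 and RBL2 with 16.6. E2F6 followed with 5.40 FPKM, then E2F3 with 4.64 and RBL1 with 3.90, whose libraries overlapped, then E2F1 with 1.37 and E2F5 with 1.28, whose libraries also overlapped. E2F8 had 0.258 FPKM and E2F2 0.039. Both controls thus held much of the late repressor E2F7 and hardly any of its relative E2F8. In the clones the order was another one. E2F4 led with 30.5 FPKM in ΔE2 and 29.2 in ΔSE12313-b, and E2F7 came next with 21.5 and 22.5, without overlap with its neighbours. RBL1 and E2F1 then followed, with overlapping libraries, ahead of RBL2, which overlapped E2F1 in ΔE2 and no neighbour in ΔSE12313-b. E2F6, E2F8 and E2F3 lay together in both groups, each overlapping the next, above E2F2 and, last, E2F5.

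The sum of all 8 E2F genes was nearly flat, at 85.6 and 88.4 FPKM in the controls, 85.5 to 99.8 in ΔE2 and 88.7 to 95.4 in ΔSE12313-b, where ΔE2 clone 2 lay just below both controls and the other 5 clones above them. Its make-up differed. E2F7 gave 46.9% and 47.2% of the sum in the controls and 21.6% to 26.0% in the 6 clones. The activators E2F1, E2F2 and E2F3 together gave 6.41% and 7.48% in the controls, 24.3% to 28.5% in ΔE2 and 26.9% to 29.1% in ΔSE12313-b. E2F8 went from 0.293% and 0.299% of the sum to between 6.52% and 9.09%. E2F4 gave 37.6% and 38.4% in the controls and 30.3% to 33.5% in the clones. For these 4 shares no clone lay within the range of the controls.

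**Figure D2:**
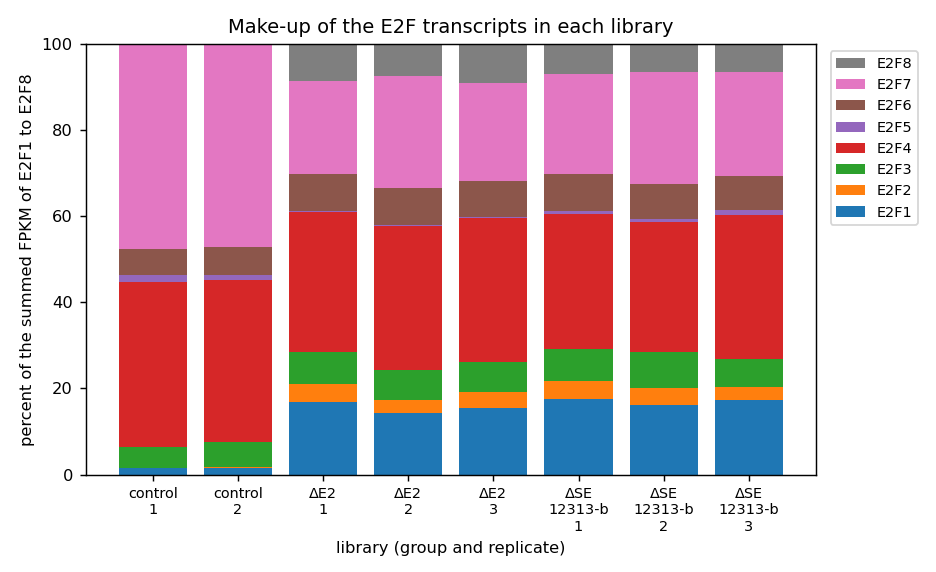
Share of each E2F gene in the summed FPKM of E2F1 to E2F8, in percent, with 1 stacked bar per library. E2F7 takes 46.9% and 47.2% of the control bars and 21.6% to 26.0% of the clone bars, while E2F1 grows from at most 1.60% to at least 14.2%.

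Among the activators, E2F1 (GRCh37, chr20:32263292-32274210, minus strand), the founding member of the family, read 1.32 and 1.42 FPKM in the controls. It read 15.3, 12.1 and 15.4 FPKM in ΔE2 clones 1 to 3, and 16.7, 14.9 and 15.3 in ΔSE12313-b clones 1 to 3. The groups did not overlap, and each clone was above both controls. On the log2 scale E2F1 rose by 3.28 ± 0.12 (SE, adjusted p = 8.13e-07) in ΔE2, a 9.75-fold change with a 95% confidence interval from 8.0 to 11.9, and by 3.42 ± 0.12 (adjusted p = 6.42e-07) in ΔSE12313-b, or 10.7-fold.

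E2F2 (chr1:23832920-23857712, minus strand) had only 3 and 2 reads in the control libraries, or 0.046 and 0.032 FPKM. The ΔE2 clones had 3.85, 2.67 and 3.67 FPKM and the ΔSE12313-b clones 4.04, 3.62 and 2.80. Each clone was far above both controls. Summed over libraries and scaled for depth, the 877 reads of ΔE2 were 87.1 times the 5 of the controls (95% counting interval 37.2 to 269), and the 846 of ΔSE12313-b were 89.5 times (38.2 to 277). The intervals cover counting error only, since reads without molecular identifiers are not independent molecules. The fitted changes of 4.64 and 4.68 on the log2 scale depend on the value added before the logarithm.

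E2F3 (chr6:20403910-20493945, plus strand), the third activator, read 4.12 and 5.16 FPKM in the controls, 6.70, 6.03 and 7.02 in ΔE2 and 7.05, 7.60 and 5.74 in ΔSE12313-b. Each clone was above both controls here too, with the lowest clone of ΔSE12313-b close to the higher control. E2F3 rose by 0.50 ± 0.15 (adjusted p = 0.0233) in ΔE2 and by 0.54 ± 0.15 (adjusted p = 0.0153) in ΔSE12313-b. With each library centred on the median of all genes the changes were 0.34 (adjusted p = 0.0887) and 0.25 (adjusted p = 0.187), so that a rise beyond that of the median gene was not shown. Of the 2 transcripts of E2F3 the values are those of the one with the later start, whereas the E2F cores lie before the earlier start. The transcript from the earlier start changed by 0.53 in ΔE2 and by 0.56 in ΔSE12313-b.

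**Figure D3:**
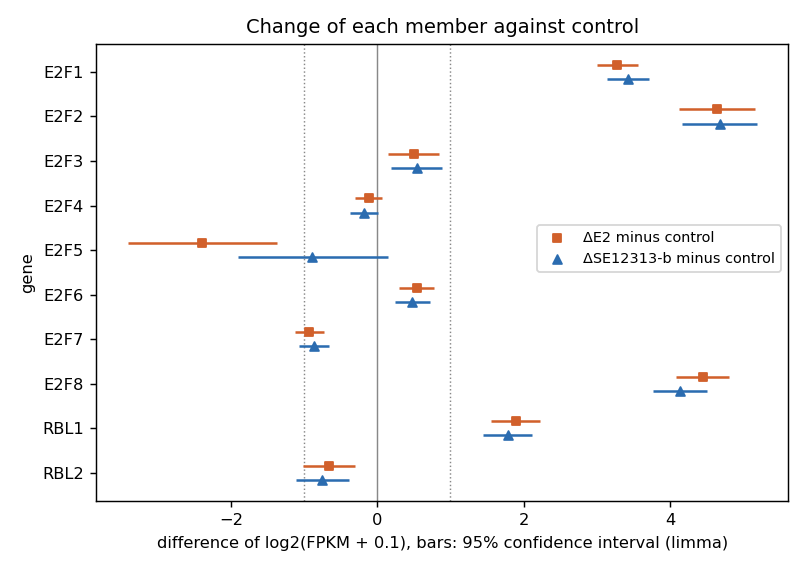
Difference of log2(FPKM + 0.1) between each deletion and the control for the 10 members, with 95% confidence intervals from limma and dotted lines at a 2-fold change. E2F1, E2F2, E2F8 and RBL1 lie right of the dotted line in both deletions, E2F7 and RBL2 lie between 0 and the left line, and E2F5 has the widest intervals.

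Of the members that repress with pocket proteins, E2F4 (chr16:67226068-67232821, plus strand) had about the same level everywhere, with 32.9 and 33.2 FPKM in the controls, 29.5, 28.6 and 33.4 in ΔE2 and 30.1, 27.8 and 29.6 in ΔSE12313-b. ΔE2 clone 3 was above both controls, and the other clones were below. For ΔE2 the fitted change was −0.12 (95% confidence interval −0.31 to 0.07, adjusted p = 0.26), and for ΔSE12313-b −0.18 (−0.37 to 0.01, adjusted p = 0.097). Relative to the median gene it was lower. With the libraries centred the values were −0.28 (adjusted p = 0.0169) and −0.47 (adjusted p = 0.00146).

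E2F5, on chromosome 8, was the member with the largest spread between clones. The controls had 1.35 and 1.21 FPKM, from 27 and 23 reads. The ΔE2 clones had 0.266, 0.074 and 0.187 FPKM, from 8, 2 and 4 reads, and lay below both controls. The ΔSE12313-b clones had 0.474, 0.514 and 1.08 FPKM, from 12, 12 and 27 reads, and clone 3 came close to the controls. E2F5 fell by 2.39 ± 0.44 on the log2 scale (adjusted p = 0.00259) in ΔE2. Summed over libraries and scaled for depth, the reads of ΔE2 were 0.139 of those of the controls, with a 95% counting interval from 0.071 to 0.256. In ΔSE12313-b the change was −0.89 ± 0.44 (95% confidence interval −1.91 to 0.14, adjusted p = 0.119), and without ΔSE12313-b clone 3 it was −1.22 (adjusted p = 0.0422). With 1 added before the logarithm in place of 0.1, the ΔE2 change was −0.96 (adjusted p = 0.00204), below the 2-fold limit.

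The direct test between the deletions called E2F5 and no other member. It was lower in ΔE2 than in ΔSE12313-b by 1.5 ± 0.40 on the log2 scale (95% confidence interval of the difference −2.42 to −0.59, adjusted p = 0.0273), where 2.63% of all genes were called in that direction. The call rested on few reads and on single libraries. Leaving out control 1 or control 2 left the difference at −1.50 with an adjusted p of 0.0517 or 0.0514. Without ΔE2 clone 2 it was −1.20 (adjusted p = 0.0565), without ΔE2 clone 3 −1.56 (adjusted p = 0.061), and without ΔSE12313-b clone 3 −1.17 (adjusted p = 0.0715). E2F5 shares 578 exonic bases, 10.9% of its own, with RBIS on the opposite strand. The library kit keeps the strand, but the handling of strand in the counting is not given in the sources used here, so reads of both genes in the shared bases cannot be told apart.

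E2F6 (chr2:11584501-11606303, minus strand) read 5.20 and 5.60 FPKM in the controls, 7.78, 7.49 and 8.42 in ΔE2 and 8.32, 7.51 and 6.92 in ΔSE12313-b, with each clone above both controls. It rose by 0.54 ± 0.11 (adjusted p = 0.00337) in ΔE2 and by 0.48 ± 0.11 (adjusted p = 0.00511) in ΔSE12313-b. Relative to the median gene the rise held in ΔE2, at 0.38 (adjusted p = 0.0143), and was 0.19 (adjusted p = 0.141) in ΔSE12313-b.

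The atypical members went in opposite directions. E2F7 (chr12:77415026-77459360, minus strand) read 40.4 and 41.5 FPKM in the controls, 19.6, 22.2 and 22.6 in ΔE2 and 22.0, 23.9 and 21.5 in ΔSE12313-b. The highest clone was far below the lower control, and the clones lay within 1.16 times of each other in ΔE2 and 1.11 times in ΔSE12313-b. E2F7 fell by 0.93 ± 0.09 (adjusted p = 8.43e-05) in ΔE2 and by 0.87 ± 0.09 (adjusted p = 9.45e-05) in ΔSE12313-b, 1.91-fold and 1.82-fold, just short of the 2-fold limit. Centring each library took it past that limit, at −1.09 and −1.15, and so did quantile normalization, at −1.27 and −1.33.

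E2F8 (chr11:19245610-19263202, minus strand) read 0.251 and 0.264 FPKM in the controls, from 11 reads each. The ΔE2 clones had 7.87, 6.36 and 9.06 FPKM and the ΔSE12313-b clones 6.81, 6.10 and 5.78, with a wide gap to the controls. E2F8 rose by 4.45 ± 0.16 (adjusted p = 6.73e-07) in ΔE2 and by 4.14 ± 0.16 (adjusted p = 8.88e-07) in ΔSE12313-b. The size depends on the value added before the logarithm. With 0.01 added the changes were 4.85 and 4.54, and with 1 added 2.79 and 2.52. Between the deletions the difference was 0.30 (95% confidence interval −0.03 to 0.63, adjusted p = 0.16). The level of E2F7 was 157 and 161 times that of E2F8 in the controls, and 2.49 to 3.91 times in the clones.

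To set E2F7 against the rest of the family, the log2 ratio of E2F7 to each other E2F gene was taken within each library, which removes any scaling of the library. The 6 clones were compared with the 2 controls by an exact permutation test (two-sided, 28 splits, smallest possible p = 0.0357), with adjustment over the 7 ratios. The ratio was lower in the clones for 6 of the 7 genes, with no overlap between the groups. Each had p = 0.0357 by the exact test (adjusted p = 0.0417). For all 6, E2F4 included, this separation was fixed by the ranges of the levels above, so the p-value adds no separate support. All ratios share the E2F7 values. Of all genes tested, 11.4% changed by a lower log2 value than E2F7 in ΔE2 and 11.7% in ΔSE12313-b. A lower ratio thus holds for most genes and not for this family alone. The ratio of E2F7 differed by −4.25 for E2F1, −5.19 for E2F8 and −5.56 for E2F2. These differences depend on the value added before the logarithm. In the same order they were −4.34, −5.6 and −7.04 with 0.01 added, and −3.62, −3.53 and −2.96 with 1 added. For E2F3 and E2F6 it differed by −1.42 and −1.41. E2F4, the most abundant partner in the comparison, gave the smallest of these differences, −0.75, which turned the order of the pair: the ratio of E2F7 to E2F4 was 0.30 and 0.32 in the controls and between −0.59 and −0.22 in the clones. For E2F5 the ratio was 0.74 higher in the clones (exact p = 0.357, adjusted p = 0.357), and 5 of the 6 clones were above both controls. It was 1.46 over the ΔE2 clones alone and 0.02 over the ΔSE12313-b clones alone. With 1 added before the logarithm this difference was −0.17.

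**Figure D4:**
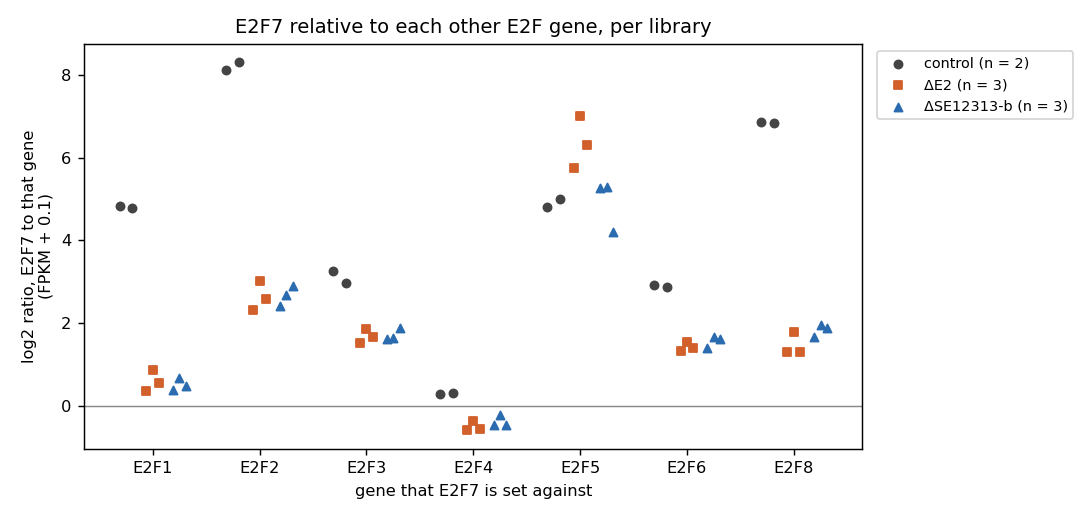
Log2 ratio of E2F7 to each other E2F gene in every library, computed on FPKM + 0.1 (2 control, 3 ΔE2 and 3 ΔSE12313-b libraries). The control points lie above all 6 clone points for every gene but E2F5, and the ratio to E2F4 crosses 0, from 0.30 and 0.32 in the controls to at most −0.22 in the clones.

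The 2 pocket proteins described here, RBL1 and RBL2, changed places. RBL1 (chr20:35631977-35724618, minus strand), itself known as an E2F target, read 4.27 and 3.53 FPKM in the controls, 15.4, 12.7 and 16 in ΔE2 and 15.3, 13.8 and 12 in ΔSE12313-b. The lowest clone was well above the higher control. It rose by 1.89 ± 0.15 (adjusted p = 3.29e-05) in ΔE2 and by 1.79 ± 0.15 (adjusted p = 3.26e-05) in ΔSE12313-b, 3.70-fold and 3.45-fold.

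RBL2 (chr16:53469531-53525560, plus strand), the pocket protein known for quiescent cells, read 17.0 and 16.2 FPKM in the controls. It read 8.55, 13.0 and 10.2 in ΔE2, where clone 2 was the highest, and 9.55, 9.84 and 10.0 in ΔSE12313-b, where the clones lay close together. No clone reached the controls. RBL2 fell by 0.66 ± 0.16 (adjusted p = 0.0081) in ΔE2 and by 0.75 ± 0.16 (adjusted p = 0.00382) in ΔSE12313-b. Relative to the median gene ΔE2 was at −0.82 and ΔSE12313-b at −1.04, the second of which passed the 2-fold limit. RBL2 was 3.98 and 4.58 times as high as RBL1 in the controls and 0.555 to 1.02 times as high in the clones, with only ΔE2 clone 2 above 1. The sum of both was 19.7 and 21.3 FPKM in the controls and 22.1 to 26.2 in the clones. RBL2 shares 609 exonic bases (8.20%) with AKTIP on the opposite strand, 721 (9.70%) with another annotated gene, and RBL1 shares 213 (6.31%), with the same limit on strand as for E2F5.

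Apart from E2F5, no member was called between ΔE2 and ΔSE12313-b, and the intervals of the differences were narrow for the abundant members. For E2F1 the difference was −0.14 (95% confidence interval −0.39 to 0.12), for E2F4 0.06 (−0.11 to 0.23), for E2F7 −0.07 (−0.25 to 0.11), for RBL1 0.10 (−0.20 to 0.40) and for RBL2 0.09 (−0.23 to 0.41). Differences within these intervals could not be seen with 3 clones a group.

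Transcript variants of a member gave almost the same values. The table lists 28 transcripts of the 10 members, from 1 each for E2F1, E2F2, E2F4 and E2F7 to 7 for E2F6. Over the 3 transcripts of E2F8 the ΔE2 change ranged from 4.36 to 4.45 and the ΔSE12313-b change from 4.07 to 4.14, and over the 5 transcripts of RBL2 from −0.69 to −0.66 in ΔE2. Reads on shared exons count for each transcript, so these values are not independent.

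The genes around the family were followed by list. The 24 known E2F targets listed include genes for replication licensing, nucleotide synthesis, DNA polymerase and S phase cyclins. CDC25A, PCNA, MYBL2, UHRF1, EZH2 and SLBP are also on the list. CCNE1 and CCNE2 are counted again among the regulators of the pocket proteins below. All 24 were called higher in ΔE2, against 11.2% of all genes tested, and all 24 in ΔSE12313-b, against 14.7%. Of the 24, 3 (CCNE2, ORC1 and MYBL2) had passed the minimum level through the clones only. The median change was 3.10 and 3.18, beside 0.14 and 0.27 over all genes tested. RRM2, the small subunit of ribonucleotide reductase, had the largest change of the list, at 6.50 for ΔE2 and 6.30 for ΔSE12313-b. SLBP, which binds the stem-loop of histone mRNA, had the smallest, with 1.00 and 1.16, and with the libraries centred it was 0.84 and 0.87, below the 2-fold limit. Between the deletions limma and voom each called 0 of the 24. Of the 13790 genes tested, limma called only 221 higher and 362 lower there, so 0 of 24 is close to that share. Without the fold limit, 2 of the 24 targets had an adjusted p under 0.05 by limma and were higher in ΔE2, and 1 was lower.

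The dimerization partners differed from each other. TFDP1, the main partner of E2F1 to E2F6, was called higher, its mean being 15 FPKM in the controls, 35.4 in ΔE2 and 42.5 in ΔSE12313-b, with changes of 1.23 (adjusted p = 8.36e-05) and 1.5 (adjusted p = 2.39e-05). TFDP2 had 1.32 FPKM in the controls, 1.18 in ΔE2 and 2.12 in ΔSE12313-b, with changes of −0.17 (adjusted p = 0.554) and 0.65 (adjusted p = 0.0418), and it was lower in ΔE2 than in ΔSE12313-b by 0.82 (adjusted p = 0.0237), below the 2-fold limit. The 5 MuvB core genes join RBL1 or RBL2 with E2F4 in the DREAM complex. Of these, LIN9 and LIN54 were called higher in both deletions, against 11.2% of all genes in ΔE2 and 14.7% in ΔSE12313-b. LIN9 had the largest change, with 1.99 and 1.87, and LIN37 the smallest, with −0.25 (adjusted p = 0.0996) and 0.17 (adjusted p = 0.227). LIN54 changed by 1.24 and 1.19, and by 0.91 in ΔSE12313-b with the libraries centred.

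Of 14 regulators of the pocket proteins, cyclins D and E with their kinases and the inhibitors of these kinases, 11 were tested, 2 of which (CCNE2 and CDKN2C) had passed the minimum level through the clones only. In ΔE2, 7 were called higher, where 11.2% of all genes were, and 0 lower by limma and by voom, where 8.36% of all genes were lower by limma. Without the fold limit 8 rose and 2 fell, and the same 2 were lower at an unadjusted p under 0.05. In ΔSE12313-b, 6 were called higher, against 14.7% of all genes, and 1 lower, against 7.83%. The median changes were 1.47 and 1.42. CCNE2, a cyclin E that drives S phase entry, had the largest change, with 4.03 and 3.83. CDK4, a kinase that phosphorylates the pocket proteins with cyclin D, had means of 51.2 FPKM in the controls, 103 in ΔE2 and 137 in ΔSE12313-b, and was called higher in both. With the libraries centred its ΔE2 change was 0.85, below the 2-fold limit. The inhibitors of these kinases moved both ways. CDKN1B changed by −0.68 in ΔE2 and by 0.06 in ΔSE12313-b, and CDKN2D by 0.15 and 0.38, none of them called. CDKN2C, the inhibitor p18, which acts on the kinases of cyclin D, was called higher in both deletions, with 3.47 and 3.27. CDKN1A, the inhibitor p21, was the gene called lower in ΔSE12313-b. CDK4 and these inhibitors are named after their values were seen. The means of CDKN1A were 80.7 FPKM in the controls, 41.5 in ΔE2 and 35.0 in ΔSE12313-b, changes of −0.96 (adjusted p = 0.000131) and −1.20 (adjusted p = 3.25e-05). With the libraries centred it was called lower in ΔE2 too, at −1.12. Of the partners of E2F6 in its Polycomb complex, 9 were tested, with medians of 0.51 in ΔE2 and 0.55 in ΔSE12313-b. Without the fold limit 6 rose in ΔE2, where 34.7% of all genes rose, and 7 in ΔSE12313-b, against 43.0%, and none fell in either. The rises were mostly under 2-fold. In ΔE2 limma and voom called 0, with 6 higher at an unadjusted p under 0.05, where 11.2% of all genes were called higher by limma. In ΔSE12313-b, where 14.7% were, both called 2, PCGF6 with 1.11 and MAX with 1.03, both under the limit once centred (0.82 and 0.74).

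**Figure D5:**
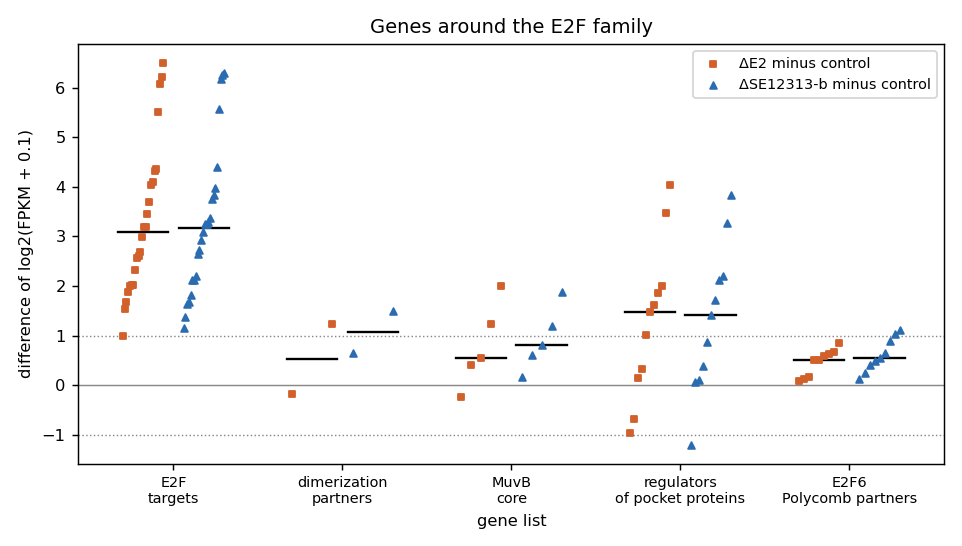
Difference of log2(FPKM + 0.1) against control for the tested genes of 5 lists, 1 point per gene, sorted within each list, with a black bar at the median and dotted lines at a 2-fold change. All 24 E2F targets lie at or above the upper dotted line in both deletions, while the E2F6 partners have medians of 0.51 and 0.55 and only PCGF6 (1.11) and MAX (1.03) in ΔSE12313-b lie above that line.

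The genes most like E2F7 over the 8 libraries were found by the root mean square difference of log2 values, each gene centred on its own mean. They were DENND4B (0.0324), AKAP8L (0.0593), MAFK (0.0663), NAT9 (0.0665) and PRX (0.0729), against a median of 0.58 over all other genes. DENND4B had means of 15.9 FPKM in the controls, 8.4 in ΔE2 and 9.01 in ΔSE12313-b. The member most like E2F7 was RBL2, at 0.166, and the least alike were E2F2 at 2.42 and E2F8 at 2.26. E2F8 was most like CDCA5 (0.091), which guards sister chromatid cohesion, ORC6 (0.108), a subunit of the origin recognition complex, BUB1 (0.115), a kinase of the spindle checkpoint, DEPDC1 (0.131) and HJURP (0.133), a chaperone of centromeric histone, and its nearest member was E2F2 at 0.246. RBL2 was most like WDR45 (0.0559), PTPRH (0.0796), OFD1 (0.0848), SIRT5 (0.0900) and RIOK3 (0.0902). These distances describe 8 points in 3 groups, where genes with the same group means lie close whatever they do.

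To see whether a member stood apart from its stretch of the chromosome, its neighbours were taken as a description. Within 5 Mb of E2F7 lay 16 tested genes whose median was −0.12 for ΔE2 and 0.24 for ΔSE12313-b, and 18.8% and 12.5% of them were below E2F7. Around RBL2, on chromosome 16 like both deleted enhancers, 49 genes had medians of 0.27 and 0.20, and 6.10% of them were below RBL2 in each deletion. Around E2F4, on the same chromosome, 96 genes had medians of 0.13 and 0.03. All of the 25 genes around E2F8 and the 112 around E2F2 had a lower signed log2 change than the member in both deletions.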

How the data were processed

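RNA of 8 EA.hy926 libraries (2 control, 3 ΔE2, 3 ΔSE12313-b) was depleted of ribosomal RNA, prepared with a directional kit and read from a single end. Per the labels and the methods of the study, reads were trimmed with Trim Galore 0.4.4 and mapped to GRCh37 with STAR 2.5.4b. The authors deposited FPKM for 65572 RefSeq transcripts, in the layout that HOMER writes. The methods of the study name featureCounts with a Gencode annotation for counting; whether it made this table of RefSeq transcripts, and how strand was handled, is not given in the sources used here. Each of the 27946 genes was represented by its most abundant transcript, by mean FPKM. The depth of each library was estimated as the one that best made FPKM times transcript length fall on whole reads. The fit was checked on 9300 to 10870 values a library, from short single-copy transcripts with few reads. Of these, 100% lay within 0.1 of a whole read, which is not an independent check. The recovered reads served for depth, counting intervals and 1 alternative. By this estimate the libraries held from 12067557 to 19101153 reads.

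The 13790 genes with at least 0.5 FPKM in at least 2 libraries entered limma (3.58.1, under R 4.3.3) as log2(FPKM + 0.1), with 3 groups in 1 model, variance trended on the mean level, two-sided tests and Benjamini-Hochberg adjustment. Fold changes on this scale understate the change of genes with low values. Ratios of E2F7 to other genes were tested by an exact permutation test. The steps were tested on simulated data. Libraries with the same replicate number did not deviate together, and the main model has no block. With so few libraries a group, this check cannot exclude a shared source. The samples of a group are separate clones, and for the control nothing says that its 2 libraries came from separate cultures, so its spread may be technical.

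Members, lists and the rule for named genes (all members, the largest and smallest changes of each list, the 5 genes most like E2F7, E2F8 and RBL2, genes within 5 Mb, promoter motifs) were chosen with earlier results of these data known. Alternatives were pseudocounts of 0.01 and 1, no minimum level or a mean of at least 1 FPKM, centred or quantile-normalized libraries, a replicate block, each library left out, no variance trend, only the groups compared, every transcript, the mean over transcripts, 1.5-fold, an adjusted p under 0.01, and limma's voom on the recovered reads. Exon overlaps were taken from a Gencode annotation on GRCh37 and promoters from RefSeq on GRCh38.p14.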

Additional observations from a re-analysis of the deposited data

Results flagged for a closer look

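E2F5 differed between the ΔE2 and the ΔSE12313-b clones by the direct test, in which deletion and cloning cannot be told apart. On the log2 scale ΔE2 was at −2.39 and ΔSE12313-b at −0.89 against the control, a difference of −1.50 (adjusted p = 0.0273 by limma over 13790 genes), with 14 reads in all 3 ΔE2 libraries, 51 in the ΔSE12313-b libraries and 50 in the controls. All 3 ΔE2 clones were below all 3 ΔSE12313-b clones. Of all genes tested, 2.63% were called in that direction. The call was lost, among other settings, without ΔE2 clone 2 (adjusted p = 0.0565 by limma) or without ΔSE12313-b clone 3 (adjusted p = 0.0715). With only the groups compared the adjusted p was 0.0535.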

How the results depend on the processing

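Of 657 changes of single members under the alternatives, 624 kept their direction and side of the threshold, 9 lost the call, 11 gained it and 13 changed sign, all 13 in the comparison of the deletions with each other. The count of members called between the deletions, 1 as reported, was 0 with a pseudocount of 1, with only the groups compared, at an adjusted p under 0.01, and with a mean of at least 1 FPKM, where E2F5 was no longer tested by construction, and between 0 and 1 with each library left out in turn. The sign changes were small. E2F2 was at 0.09 with centred libraries, 0.05 with quantile normalization and −0.18 to 0.12 with single libraries left out, where it was positive without ΔE2 clone 2 or ΔSE12313-b clone 1. E2F3 was at 0.09, 0.06 and −0.15 to 0.04, where it was positive without ΔE2 clone 2 or ΔSE12313-b clone 2. E2F7 was at 0.06 and 0.05 under both scalings, and with single libraries left out RBL2 ranged from −0.07 (ΔE2 clone 2) to 0.23, E2F4 from −0.01 (ΔE2 clone 3) to 0.11 and E2F6 from −0.0031 (ΔSE12313-b clone 3) to 0.13. The ratio of E2F7 to E2F5 was −0.17 with a pseudocount of 1, and the cause was not tested. With each library left out, the ratio of E2F7 differed by −4.31 to −4.21 for E2F1, −5.65 to −5.46 for E2F2, −1.56 to −1.28 for E2F3, −0.79 to −0.72 for E2F4, −1.44 to −1.37 for E2F6, −5.25 to −5.12 for E2F8 and 0.46 to 1.03 for E2F5. The adjusted p of the first 6 was then 0.0556 or 0.167, because fewer splits are left.

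Counts over all genes moved more. With a pseudocount of 1, 653 genes in place of 1153 were called lower in ΔE2 and 593 in place of 1080 in ΔSE12313-b, and 673 in ΔSE12313-b with a mean of at least 1 FPKM. Centring turned the share of higher genes among those called from 57.2% to 44.4% for ΔE2, and for ΔSE12313-b from 65.3% to 43.3%, where 1201 were higher. At 1.5-fold 3109 were higher and 1945 lower in ΔE2, and 4124 and 1678 in ΔSE12313-b. Over every transcript, 4200 were higher and 3164 lower in ΔE2, and 5705 and 2968 in ΔSE12313-b. Between the deletions 221 genes were higher and 362 lower in ΔE2, with 100 and 140 at a pseudocount of 1, 492 and 1139 at 1.5-fold, 592 and 1057 over every transcript, and 122 higher at an adjusted p under 0.01.

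Samples with the same replicate number did not deviate together (r from −0.08 to 0.11 between the deletions), and with a replicate block 5, 4 and 1 members were called, the same members as without it. The low reads of E2F5 in ΔE2 and of E2F2 in the controls limit what can be said of their size.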
